A study of Homo sapiens with 4 samples.

Results

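The 26 mitochondrially encoded genes described here are the genes of the deposited gene table whose name begins with MT-, out of 29670 genes in all. They comprise 2 ribosomal RNA (rRNA) genes, 13 protein genes and 11 transfer RNA (tRNA) genes, and the other 11 of the 22 annotated mitochondrial tRNA genes are not analysed here. All 26 had at least 1 read in at least 1 library, and all lie on the mitochondrial chromosome of GRCh38 (hg38). Their names and types are those of the deposited gene table, and GENCODE 29 gave their positions, matched by Ensembl identifier.

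Total RNA from 4 established human liver cancer lines was sequenced, with 1 library each for HepG2, SK-Hep-1, Hep3B and Huh-7D12, the last a clone of the Huh-7 line. No treatment or genetic change is given for any of these libraries in the labels. The RNA was digested with DNase and depleted of rRNA with a Ribo-Zero kit for human, mouse and rat, and stranded libraries were prepared without poly(A) selection. There were no replicates, so that no test, p-value or standard deviation could be given, and the 95% intervals below cover counting error only.

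Mitochondrial DNA is a small circle that is transcribed from both strands into long precursors. Nuclear-encoded enzymes cut out the tRNAs that lie between most of the other genes and so release the rRNAs and messenger RNAs, which are then stabilised or degraded one by one. The protein genes all encode subunits of the respiratory chain and of ATP synthase, which are assembled with a larger number of nuclear-encoded subunits, and the rRNAs and tRNAs serve the translation of these few messages inside the organelle.

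The libraries held 22950383 gene reads in HepG2, 20938569 in SK-Hep-1, 24409250 in Hep3B and 18581156 in Huh-7D12. Levels are the deposited normalized reads put on a per-million scale by 1 factor for all libraries, and log2 levels have a pseudocount of 1. A gene entered the comparison of lines when its level was at least 1 in at least 1 line, which held for 15850 genes. On the log2 scale with that pseudocount, a gene counted as standing higher in a line when it exceeded each of the other 3 lines at least 2-fold, and as standing lower when each of them exceeded it at least 2-fold. Of 10 hepatocyte marker genes, 10 had a level of at least 1 in each line other than SK-Hep-1, where 1 did and 5 had 0 reads. All 5 mesenchymal markers had a level of at least 1 in SK-Hep-1, against 1 or 2 of them in the other lines, and the summed level of the 5 was 8756 there, 14.2 in HepG2, 275 in Hep3B and 786 in Huh-7D12. The part of this difference in the results on SK-Hep-1 below was not tested.

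Mitochondrial genes took a large and unequal part of the 4 libraries. Their share of all gene reads was 47.4% in HepG2 (10875375 reads), 34.8% in SK-Hep-1 (7294560 reads), 29.2% in Hep3B (7125375 reads) and 17.4% in Huh-7D12 (3240734 reads). HepG2 had the highest share and Huh-7D12 the lowest, and the 95% Wilson intervals (17.4 to 17.5 in Huh-7D12, for example) were far narrower than the distance between lines. Nearly all of these reads came from the rRNA genes, which made up 94.7%, 95.9%, 94.2% and 91.8% of the mitochondrial reads in the order HepG2, SK-Hep-1, Hep3B and Huh-7D12. All unlabelled sets of 4 values below are in this order, which runs from the highest to the lowest share of mitochondrial reads. The protein genes accounted for 2.52%, 1.43%, 1.68% and 1.43% of all gene reads, and the 11 tRNA genes for 694, 470, 570 and 196 reads.

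The order of the lines depended on the class of gene. Among the reads of protein-coding genes alone, the 13 mitochondrial protein genes made up 4.69%, 2.21%, 2.39% and 1.74%. SK-Hep-1 thus lay second in the share taken by all mitochondrial genes and behind Hep3B in the share taken by the protein genes. How much mitochondrial rRNA the depletion kit left in each library was not measured, and its part in the rRNA values was not tested. In bulk RNA, fewer mitochondria or fewer mitochondrial genomes per cell and less RNA per genome cannot be told apart.

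**Figure D1:**
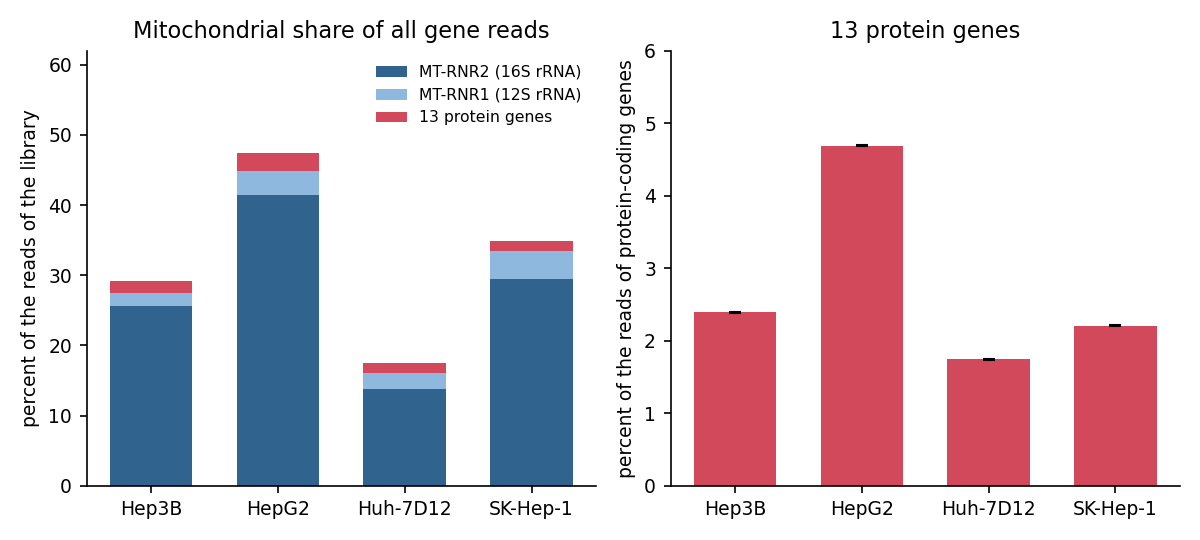
Left, the percent of all gene reads of each library that came from MT-RNR2, MT-RNR1 and the 13 mitochondrial protein genes (stacked bars); right, the percent of the reads of protein-coding genes that came from the 13 protein genes, with 95% Wilson intervals for counting error. HepG2 is highest in both panels at 47.4% and 4.69%, and SK-Hep-1 is second in the left panel at 34.8% but behind Hep3B in the right panel at 2.21%.

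MT-RNR2 (ENSG00000210082, chrM:1671-3229, plus strand), which encodes the 16S rRNA of the large subunit of the mitochondrial ribosome, had levels of 520544 in HepG2, 325762 in SK-Hep-1, 218102 in Hep3B and 109018 in Huh-7D12. It alone made up 41.5%, 29.5%, 25.6% and 13.8% of the gene reads of the 4 libraries. HepG2 was 4.77-fold (4.77 to 4.78) above Huh-7D12, and the 4 levels were well apart. MT-RNR2 just passed 2-fold as lower in Huh-7D12: Hep3B, the nearest line, was 2.001-fold (1.998 to 2.004) above it, so that the interval spanned the threshold, and it did not pass with reads scaled to library totals.

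MT-RNR1 (ENSG00000211459, chrM:648-1601, plus strand), which encodes the 12S rRNA of the small subunit, had levels of 42256 in HepG2, 43303 in SK-Hep-1, 16251 in Hep3B and 17268 in Huh-7D12. HepG2 and SK-Hep-1 formed a high pair and Hep3B and Huh-7D12 a low pair, so that it passed 2-fold in none of the 4 lines. SK-Hep-1 was 1.02-fold (1.02 to 1.03) above HepG2 and 2.51-fold (2.50 to 2.52) above Huh-7D12. The order within both pairs turned when reads were scaled to those outside mitochondrial genes, which put MT-RNR1 at 64019, 60157, 26940 and 26513. Without HepG2 the gene passed 2-fold as higher in SK-Hep-1, without Huh-7D12 as lower in Hep3B, without Hep3B as lower in Huh-7D12, and without SK-Hep-1 as higher in HepG2.

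Because both rRNAs are counted in the same library, their ratio does not depend on the scaling between lines. There were 12.3 reads of MT-RNR2 per read of MT-RNR1 in HepG2 (12.3 to 12.3), 7.52 in SK-Hep-1 (7.51 to 7.54), 13.4 in Hep3B (13.4 to 13.5) and 6.31 in Huh-7D12 (6.29 to 6.33). Per base of the genes, the 16S excess was 7.54, 4.60, 8.21 and 3.86. The lines fell into a pair with a high ratio, Hep3B and HepG2, and a pair with a low ratio, which is not the grouping that either gene showed by level. The rRNA reads per read of the 13 protein genes were 17.8, 23.4, 16.4 and 11.2, and SK-Hep-1 had the highest value. With MT-RNR1 alone, the ratio to protein gene reads was 1.34 in HepG2, 2.75 in SK-Hep-1, 1.14 in Hep3B and 1.53 in Huh-7D12. Huh-7D12 was lowest of the 4 lines by MT-RNR2 and second highest by MT-RNR1, so that the place of this line depended on which rRNA was used.

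All 13 protein genes were measured above the entry level, and each of them had its highest level in HepG2. With reads scaled to the total of each library this held for 10 of 13. As deposited, the lowest level was in Huh-7D12 for 7 genes, in SK-Hep-1 for 5 and in Hep3B for 1, MT-ND5. This order depended on the scaling: library totals gave 5 in Huh-7D12, 7 in SK-Hep-1 and 1 in Hep3B. Scaling to reads outside mitochondrial genes gave 7 in Huh-7D12, 6 in SK-Hep-1 and 0 in Hep3B. The median log2 difference of a line from the average of the other 3 was 1.15 in HepG2, -0.24 in SK-Hep-1, -0.20 in Hep3B and -0.59 in Huh-7D12, against -0.08, -0.03, -0.06 and -0.05 over all 15850 genes that entered. Without HepG2 the median was 0.26 in Hep3B, 0.072 in SK-Hep-1 and -0.29 in Huh-7D12. It was 0.68 in HepG2, -0.46 in SK-Hep-1, 0.071 in Hep3B and -0.17 in Huh-7D12 with library totals, where the median of all genes itself shifted to -0.45, -0.23, 0.17 and 0.31. Scaling to reads outside mitochondrial genes shifted the median of all genes to 0.09 in Hep3B and -0.19 in SK-Hep-1.

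In HepG2, 4 of the 13 protein genes stood higher than in every other line, while the background was 4.62% of all genes tested. No member stood lower there, against 2.97% of all genes. In Huh-7D12, MT-ND1 stood lower among the protein genes, beside MT-RNR2 and 2 tRNA genes, against 2.21% of all genes, and no member stood higher, against 4.83%. In SK-Hep-1, MT-ND6 stood lower, against 8.25%, and no member stood higher, against 12.4%. In Hep3B no member stood higher, against 3.36%, or lower, against 2.18%. The members are cut from shared precursors and are not independent of each other. The 4 calls in HepG2 became 9 without SK-Hep-1, 1 with reads scaled to library totals and 7 with reads scaled to those outside mitochondrial genes. With library totals the 4 calls in Huh-7D12 became 2, MT-TW and MT-TT, and those of MT-ND1 and MT-RNR2 were lost. The 2 calls that appeared in Hep3B without Huh-7D12 (lower) and the 2 in SK-Hep-1 without HepG2 (higher) were MT-RNR1 and MT-TW in both cases.

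**Figure D2:**
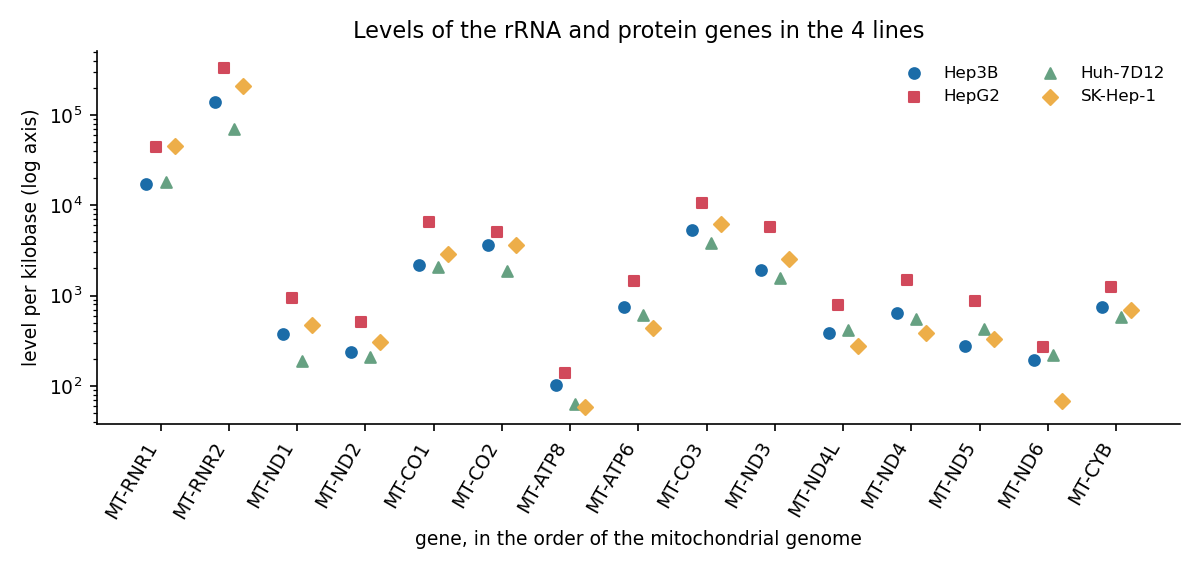
Level per kilobase of gene (log axis) of the 2 rRNA and 13 protein genes in the 4 lines, in the order of the genes on the mitochondrial genome; each point is 1 library. HepG2 is the highest point for MT-RNR2 and for each of the 13 protein genes. MT-CO3 is the highest protein gene in each line and MT-ATP8, which overlaps MT-ATP6, the lowest. MT-ND6 of SK-Hep-1 at 67.8 lies far below the other lines.

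The genes of cytochrome c oxidase, complex IV of the respiratory chain, which passes electrons to oxygen, held most of the protein gene reads. MT-CO1 (chrM:5904-7445), MT-CO2 (chrM:7586-8269) and MT-CO3 (chrM:9207-9990) encode its 3 core subunits, and together they made up 68.9% of the reads of the 13 genes in HepG2, 74.6% in SK-Hep-1, 70.2% in Hep3B and 66.5% in Huh-7D12. MT-CO3 ranked first of the 13 genes by level per kilobase in each line, at 10464, 6200, 5366 and 3845.

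MT-CO1, the catalytic subunit, had levels of 10119 in HepG2, 4425 in SK-Hep-1, 3377 in Hep3B and 3219 in Huh-7D12. HepG2 stood apart from a narrow group of 3 lines and was 2.29-fold (2.27 to 2.31) above SK-Hep-1, the nearest. MT-CO2, which carries the copper centre that takes electrons from cytochrome c, had levels of 3466, 2481, 2465 and 1279. Its low value was in Huh-7D12, while Hep3B and SK-Hep-1 differed by less than counting error, with a ratio of 0.994 (0.982 to 1.01). The reads of MT-CO1 per read of MT-CO2 were accordingly 2.92 in HepG2, 1.78 in SK-Hep-1, 1.37 in Hep3B and 2.52 in Huh-7D12. Reads of a nuclear copy of MT-CO1, described below, are left out of this ratio. In Hep3B they were 11.8% of the summed reads of gene and copy, and in each other line at most 0.0310%. MT-CO3 had levels of 8204, 4861, 4207 and 3015, with HepG2 highest and Huh-7D12 lowest.

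MT-CYB (chrM:14747-15887), which encodes cytochrome b and is the mitochondrial gene of complex III, varied least of the 13 protein genes. Its levels were 1435 in HepG2, 791 in SK-Hep-1, 861 in Hep3B and 658 in Huh-7D12, a span of 2.18-fold. Hep3B, Huh-7D12 and SK-Hep-1 lay close together and HepG2 above them.

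Complex I, the NADH dehydrogenase, takes 7 of its subunits from mitochondrial genes, and these made up 23.4% of the protein gene reads in HepG2, 18.4% in SK-Hep-1, 20.0% in Hep3B and 23.8% in Huh-7D12. The 7 genes encode membrane subunits of the proton-pumping arm, but they did not follow 1 pattern across the lines. MT-ND3, MT-ND4 and MT-ND5 stood higher in HepG2, MT-ND1 stood lower in Huh-7D12 and MT-ND6 stood lower in SK-Hep-1.

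MT-ND3 (chrM:10059-10404) had levels of 2000.1 in HepG2, 877 in SK-Hep-1, 659 in Hep3B and 543 in Huh-7D12, and HepG2 was 2.28-fold (2.24 to 2.32) above SK-Hep-1. MT-ND5 (chrM:12337-14148) had levels of 1586, 601, 506 and 765, and HepG2 was 2.07-fold (2.04 to 2.11) above Huh-7D12. HepG2 was again far from the others for both genes, but the line nearest to it was not the same.

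MT-ND1 (chrM:3307-4262) had levels of 889 in HepG2, 455 in SK-Hep-1, 361 in Hep3B and 178 in Huh-7D12. It spanned 5.0-fold, the widest span of the 13 protein genes, and Huh-7D12 lay below every other line. Against Hep3B, the nearest line, the ratio of Huh-7D12 was 0.492 (0.474 to 0.510), an interval that reached past the 2-fold threshold, and the gene did not pass with library totals. MT-ND2 (chrM:4470-5511), which follows it on the genome, had levels of 530, 315, 248 and 215, and Huh-7D12 was there near Hep3B, with a ratio of 0.870 (0.839 to 0.902).

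MT-ND6 (ENSG00000198695, chrM:14149-14673) is the protein gene encoded on the minus strand of the reference, and the other 12 lie on the plus strand. It had levels of 142 in HepG2, 35.6 in SK-Hep-1, 100.3 in Hep3B and 116 in Huh-7D12. HepG2, Hep3B and Huh-7D12 lay within a factor of 1.41 (1.34 to 1.49) of each other and SK-Hep-1 lay well below, at 0.355 (0.326 to 0.386) of Hep3B. Reads were 2597, 675, 2875 and 2741. Whether the authors' counting used the strand is not given in the sources used here, so that reads of MT-ND6 and of transcripts antisense to it cannot be told apart.

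Subunits of ATP synthase are encoded by MT-ATP8 (chrM:8366-8572) and MT-ATP6 (chrM:8527-9207), which share 46 bases on the same strand, and both proteins are read in different frames from 1 bicistronic messenger RNA. MT-ND4L (chrM:10470-10766) and MT-ND4 (chrM:10760-12137) of complex I form a second such pair and share 7 bases. The sequences of both overlaps are shown because a read that falls there belongs to both genes, and how the authors assigned it is not given in the sources used here. They are the plus strand of the reference from GENCODE 29 transcripts on GRCh38, 5′ to 3′, with the shared bases in capitals and 12 bases on either side.
MT-ATP8 and MT-ATP6, chrM:8515-8584: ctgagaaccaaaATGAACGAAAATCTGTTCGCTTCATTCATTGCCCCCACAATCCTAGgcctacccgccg
MT-ND4L and MT-ND4, chrM:10748-10778: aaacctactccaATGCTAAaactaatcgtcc
In both, the capitals begin with the ATG of the second gene and end with the last bases of the first, and the overlap is 22.2% of the length of MT-ATP8 and 2.36% of that of MT-ND4L.

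These 4 genes had in common a low value in SK-Hep-1. MT-ATP6, the proton channel subunit, had levels of 984 in HepG2, 294 in SK-Hep-1, 508 in Hep3B and 417 in Huh-7D12. MT-ND4 had levels of 2023, 536, 881 and 751, and HepG2 was 2.30-fold (2.26 to 2.33) above Hep3B, its nearest line. MT-ND4L, at 234, 82.6, 113 and 125, and MT-ATP8, at 28.9, 12.1, 21.4 and 12.9, were lowest in SK-Hep-1 as well, although the MT-ATP8 levels of SK-Hep-1 and Huh-7D12 differed by less than counting error, with a ratio of 1.07 (0.900 to 1.28) for Huh-7D12. None of the 4 passed 2-fold as lower in SK-Hep-1. MT-ATP8 ranked last of the 13 genes per kilobase in each line, at 140, 58.4, 103 and 62.6. Per base of the genes there were 10.3, 7.40, 7.23 and 9.80 reads of MT-ATP6 per read of MT-ATP8, although both lie on 1 messenger RNA. How read pairs that reach into both genes were counted is not given, and their part in this rank was not tested.

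The share of each gene among the reads of the 13 protein genes removes the overall level and the scaling. By this measure the 4 lines had similar profiles: across the 13 genes, the Spearman correlation of the per-length shares between pairs of lines ran from 0.852, between Huh-7D12 and SK-Hep-1, to 0.945, between Hep3B and HepG2. The genes are not independent replicates. A share lay at least 1.5-fold outside the range of the other 3 lines for 3 genes in SK-Hep-1 and 1 gene in Huh-7D12, and for none in HepG2 and Hep3B.

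In SK-Hep-1 the reads of MT-ATP8, MT-ATP6, MT-ND4L and MT-ND4 together made up 5.86% (5.78 to 5.95) of the protein gene reads, against 10.3% in HepG2, 10.7% in Hep3B and 11.6% in Huh-7D12. MT-ATP6 had a share of 3.11%, 1.86%, 3.55% and 3.70% in the 4 lines, and MT-ND4 of 6.39%, 3.40%, 6.16% and 6.65%. In both cases the 3 other lines lay close together and SK-Hep-1 lay below the lowest of them by at least 1.5-fold, as it did for MT-ND6, with shares of 0.449%, 0.226%, 0.701% and 1.03%. MT-ATP6 has a nuclear copy that also collected reads, and with the reads of that copy added its shares were 3.62%, 2.09%, 4.39% and 4.25%, with SK-Hep-1 still lowest.

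In Huh-7D12 the share of MT-ND1 was low, at 1.57% (1.53 to 1.62) against 2.81% in HepG2, 2.89% in SK-Hep-1 and 2.53% in Hep3B. MT-ND4L, MT-ND4, MT-ND5, MT-ND6 and MT-ATP6 had their highest shares in this line, and for MT-ND4 and MT-ATP6 it lay close to HepG2 and Hep3B. After the reads of its nuclear copy were added, MT-ATP6 was highest in Hep3B, at 4.39% against 4.25% in Huh-7D12. For MT-ND5 the shares were 5.01%, 3.81%, 3.53% and 6.77%, so that Huh-7D12 and HepG2 were high and Hep3B and SK-Hep-1 low. The log2 share of MT-ND6 differed from the average of the other 3 lines by 1.31 in Huh-7D12 and by -1.60 in SK-Hep-1, and MT-ND6 was the gene with the largest difference in share for 4 of the 6 pairs of lines.

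**Figure D3:**
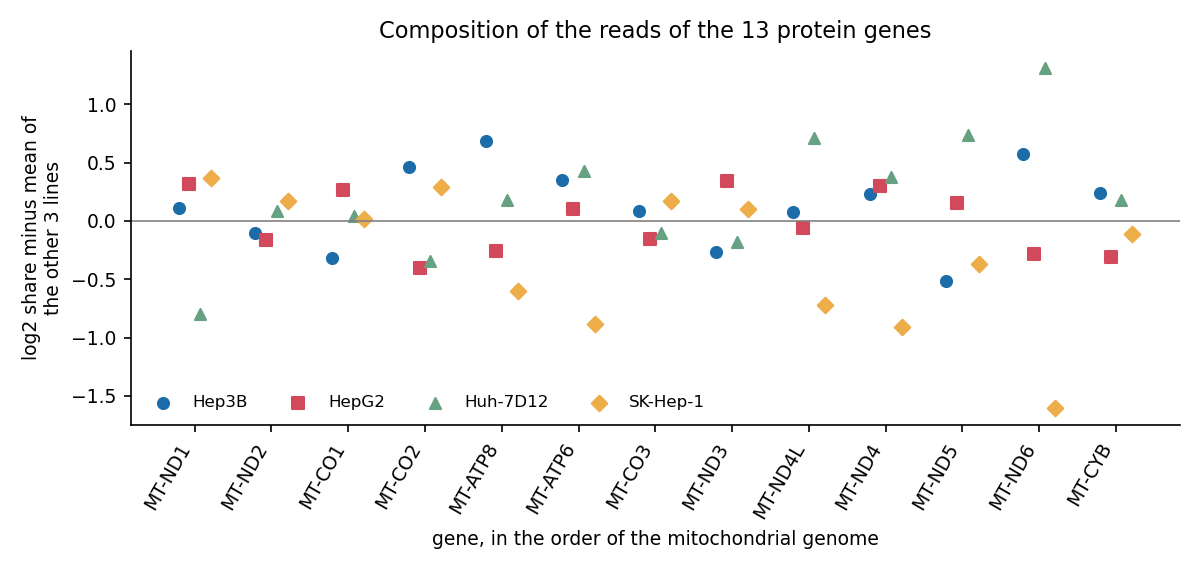
Log2 share of each of the 13 protein genes among their summed reads, as the difference of a line from the average of the other 3, in the order of the genome; each point is 1 library. SK-Hep-1 lies low for MT-ATP6 (-0.88), MT-ND4 (-0.91) and MT-ND6 (-1.60), and Huh-7D12 lies low for MT-ND1 (-0.80) and high for MT-ND6 (1.31).

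The 11 tRNA genes were near the limit of detection. They are 66 to 72 bases long, shorter than the 100-base reads, and whether their reads came from free tRNAs or from uncut precursors was not tested. Of the 11, 7 passed the entry level. The other 4, MT-TF, MT-TM, MT-TY and MT-TE, had at most 9 reads in any library, and MT-TM had 2 reads in Huh-7D12 and 0 elsewhere, where 3 reads would correspond to a level of 0.164 in HepG2, 0.158 in SK-Hep-1 and 0.105 in Hep3B. The genes with the highest mean level were MT-TW, MT-TT and MT-TP, and those with the widest span among the genes with at least 10 reads in each line were MT-TW, MT-TT and MT-TQ.

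The sequences of these 4 tRNA genes, and of MT-TI, which was chosen after its values were seen, are shown 5′ to 3′ on the coding strand, with the anticodon in capitals and T written for U. They were taken from GENCODE 29 transcripts on GRCh38.
MT-TW, tRNA-Trp, chrM:5512-5579, plus strand: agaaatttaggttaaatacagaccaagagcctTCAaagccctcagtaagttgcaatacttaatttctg
MT-TT, tRNA-Thr, chrM:15888-15953, plus strand: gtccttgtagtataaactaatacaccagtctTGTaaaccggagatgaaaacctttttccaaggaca
MT-TI, tRNA-Ile, chrM:4263-4331, plus strand: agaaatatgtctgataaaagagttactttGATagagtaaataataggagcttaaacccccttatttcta
MT-TP, tRNA-Pro, chrM:15956-16023, minus strand: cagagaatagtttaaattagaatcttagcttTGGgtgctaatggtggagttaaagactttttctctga
MT-TQ, tRNA-Gln, chrM:4329-4400, minus strand: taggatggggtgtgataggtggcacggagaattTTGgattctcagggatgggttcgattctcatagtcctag
Each anticodon was placed where the stem around it, beyond the nearest loop bases, paired best, with at least 4 of 5 pairs required. The pairing in 4 or 5 of 5 positions, with G to T counted as a pair, is therefore not a result. MT-TI and MT-TQ overlap by 3 bases on opposite strands.

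MT-TT, which carries threonine, had 172 reads in HepG2, 174 in SK-Hep-1, 273 in Hep3B and 28 in Huh-7D12, or levels of 9.40, 9.18, 9.53 and 1.19. HepG2, SK-Hep-1 and Hep3B differed by less than counting error, with a ratio of 0.987 (0.811 to 1.20) of HepG2 to Hep3B, while SK-Hep-1 was 7.72-fold (5.16 to 11.96) above Huh-7D12. MT-TW, which carries tryptophan, had 246, 210, 137 and 23 reads, or levels of 13.4, 11.1, 4.78 and 0.976, and Huh-7D12 was again below every other line. MT-TT and MT-TW were the 2 tRNA genes that stood lower in Huh-7D12, and with the pseudocount of 1 no tRNA gene passed 2-fold in another line. MT-TI, which carries isoleucine, had 49, 20, 26 and 1 reads, and did not pass 2-fold with the pseudocount of 1. A pseudocount of 0.25, or scaling to reads outside mitochondrial genes, put MT-TI and MT-TS1 as higher in HepG2. Both settings also put MT-TI as lower in Huh-7D12. A pseudocount of 4 left MT-TT as lower in Huh-7D12 but not MT-TW.

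The tRNA genes of the other strand did not share this low value. MT-TP, which carries proline and lies 2 bases beyond the end of MT-TT on the opposite strand, had 98 reads in HepG2, 38 in SK-Hep-1, 64 in Hep3B and 73 in Huh-7D12, and Huh-7D12 was second highest by level, at 3.10. MT-TQ, which carries glutamine, had 60, 11, 52 and 29 reads, and its lowest level, 0.580, was in SK-Hep-1. Summed over the 5 plus-strand genes there were 473, 408, 437 and 63 reads, and over the 6 minus-strand genes 221, 62, 133 and 133 reads. These reads were grouped by the annotated strand of the gene. As for MT-ND6, reads of transcripts antisense to these genes cannot be told apart. The plus-strand reads per minus-strand read were 2.14 in HepG2 (1.82 to 2.52), 6.58 in SK-Hep-1 (5.03 to 8.74), 3.29 in Hep3B (2.70 to 4.02) and 0.474 in Huh-7D12 (0.345 to 0.644). No 2 of these intervals overlapped, and Huh-7D12 was the line with more reads in the minus-strand than in the plus-strand genes. MT-TF and MT-TM, both on the plus strand, went the other way, since 9 of 20 reads of MT-TF and both reads of MT-TM were in Huh-7D12.

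Summed minus-strand tRNA levels were 12.1 (10.5 to 13.8) in HepG2, 3.27 (2.51 to 4.19) in SK-Hep-1, 4.64 (3.89 to 5.50) in Hep3B and 5.65 (4.73 to 6.69) in Huh-7D12. HepG2 was highest, as for MT-ND6 on the same strand, but the interval of Hep3B overlapped those of SK-Hep-1 and Huh-7D12. The levels of the single genes did not share 1 order of lines. MT-TA and MT-TS1 were lowest in Hep3B, but within counting error of SK-Hep-1. Their ratios of Hep3B to SK-Hep-1 were 0.992 (0.315 to 3.39) and 0.221 (0.0218 to 1.23). MT-TT, MT-TW and MT-TI were also set against the protein gene that precedes them on the plus strand. These 3 genes were named for their span or after their values were seen, so that their low values in Huh-7D12 are a description, and MT-TF and MT-TM were not compared in this way. There were 6.55 reads of MT-TT per 1000 reads of MT-CYB in HepG2, 11.6 in SK-Hep-1, 11.1 in Hep3B and 1.81 in Huh-7D12. For MT-TW per 1000 reads of MT-ND2 the values were 25.4, 35.2, 19.3 and 4.53, and for MT-TI per 1000 reads of MT-ND1 they were 3.01, 2.32, 2.51 and 0.239. The interval of Huh-7D12 lay below those of the other 3 lines in each case, with upper bounds of 2.61, 6.81 and 1.33.

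**Figure D4:**
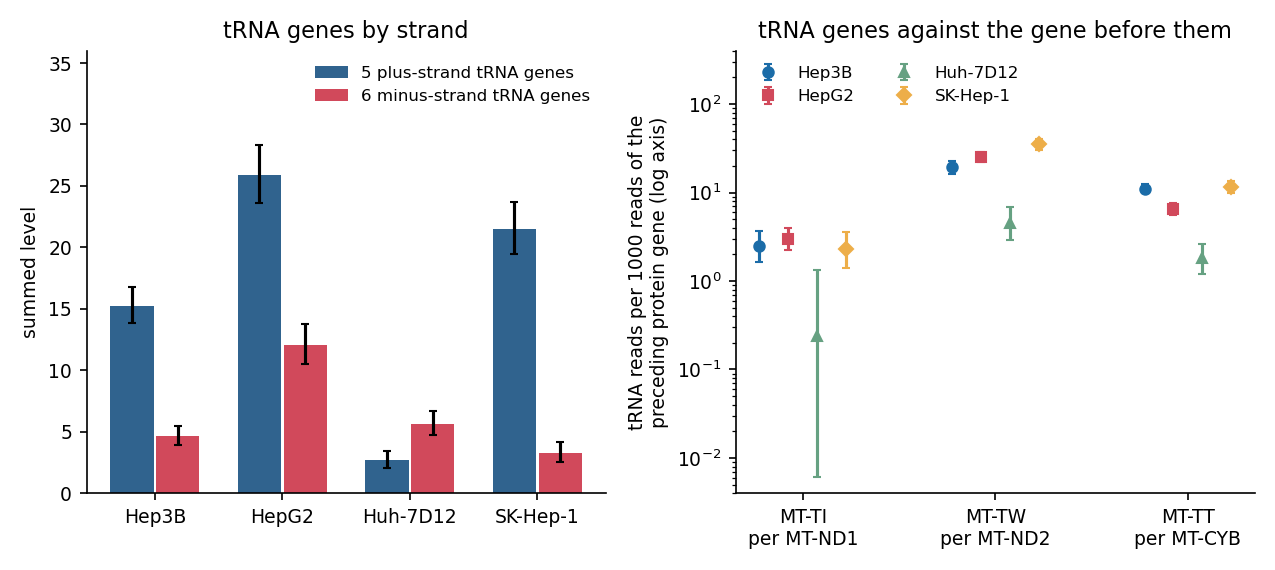
Left, summed level of the 5 plus-strand and 6 minus-strand tRNA genes in each line with 95% Poisson intervals; right, reads of 3 plus-strand tRNA genes per 1000 reads of the protein gene before them (log axis) with 95% exact binomial intervals. In Huh-7D12 the plus-strand bar (2.67) is shorter than the minus-strand bar (5.65), and its points lie below those of the other lines for the 3 tRNA genes shown, which were named for their span or after their values were seen. Genes are grouped by annotated strand, and antisense reads cannot be told apart.

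The nuclear genome holds copies of mitochondrial DNA, and reads can be shared with them. Of 54 genes annotated as such copies, 6 passed the entry level. A segment of chromosome 1 holds copies of MT-ND1, MT-ND2, MT-CO1, MT-CO2, MT-ATP6 and MT-CO3 that are 98.2% to 99.1% identical to the genes over the aligned bases. How the authors counted reads that match both is not given in the sources used here.

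MTCO1P12 (chr1:631074-632616) is a copy of MT-CO1 at 98.7% identity, and 27.9% of the 100-base windows of the gene are found in it without a difference. It had 12956 reads in Hep3B against 35 in HepG2, 26 in SK-Hep-1 and 5 in Huh-7D12, and Hep3B was 236-fold (170 to 339) above HepG2. In Hep3B the copy took 11.8% of the summed reads of gene and copy, and elsewhere 0.0189% in HepG2, 0.0310% in SK-Hep-1 and 0.00659% in Huh-7D12. With the copy reads added, the share of MT-CO1 among the protein gene reads of Hep3B went from 23.6% to 25.6%, and remained the lowest of the 4 lines.

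MTND1P23 (chr1:629062-629433), a partial copy of MT-ND1, had 1 read in HepG2, 1 in SK-Hep-1, 1875 in Hep3B and 438 in Huh-7D12. It was thus high in 2 lines and near 0 in the other 2, a different set of lines from that of MTCO1P12. In Hep3B and Huh-7D12 it took 15.3% and 9.47% of the summed reads. MTATP6P1 (chr1:633696-634376) had reads in each line, 3051, 681, 4267 and 1560, which were 14.5%, 10.9%, 22.7% and 13.7% of the summed reads with MT-ATP6. MTND2P28 had 253, 163, 156 and 121 reads, between 2.15% and 2.66% of the sum with MT-ND2. The difference between lines was therefore far larger for 2 of the 4 copies than for the mitochondrial genes they resemble. Adding the copy reads to their genes, an alternative chosen after seeing the data, left the numbers of members standing higher or lower as they were in each line.

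The nuclear genes of the same complexes had other medians than the mitochondrial ones in HepG2 and Huh-7D12, although single nuclear genes ranged widely. In HepG2 the median log2 difference from the other 3 lines was 1.37 for the 7 mitochondrial genes of complex I against -0.16 for 36 nuclear ones, 0.91 for MT-CYB against 0.10 for 9 nuclear genes of complex III, 1.05 for the 3 mitochondrial genes of complex IV against -0.26 for 12 nuclear ones, and 1.11 for both ATP synthase genes against -0.08 for 18 nuclear ones. In Huh-7D12 the mitochondrial medians were, as deposited, below 0 and the nuclear ones above it: -0.39 against 0.30 for complex I, -0.59 against 0.29 for complex III, -0.87 against 0.33 for complex IV and -0.45 against 0.29 for ATP synthase. Library totals put the mitochondrial median of complex I at 0.031 in this line, and the others stayed below 0, at -0.17, -0.45 and -0.042. The nuclear range enclosed the mitochondrial median in several cases: the nuclear genes of complex I ran from -1.41 to 1.45 in HepG2 and from -1.75 to 1.41 in Huh-7D12. The scaling between libraries moves both sets of genes of a line alike, apart from the pseudocount. It therefore changed the difference of their medians little. For complex I in Huh-7D12 this difference was -0.69 as deposited, -0.65 with library totals and -0.72 with reads scaled to those outside mitochondrial genes. The difference between both medians in Hep3B and SK-Hep-1 ran from -0.14 to 0.56 and from -0.68 to 0.17.

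**Figure D5:**
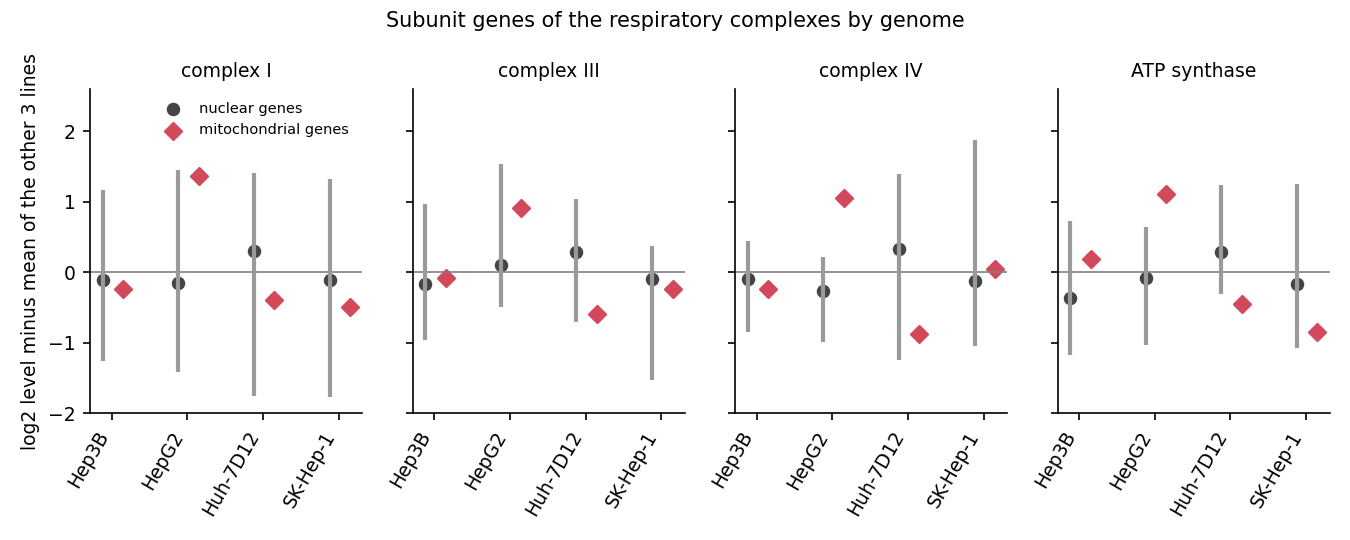
Log2 difference of a line from the average of the other 3 for the subunit genes of 4 complexes, with the median of the nuclear genes (circles) and their range (bars) beside the median of the mitochondrial genes (diamonds). In HepG2 the diamonds lie above the circles for all 4 complexes, with differences of 0.80 to 1.52, and in Huh-7D12 they lie below them, with differences of -1.20 to -0.69.

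Nuclear genes of mitochondrial gene expression, replication, biogenesis and respiration seldom passed 2-fold. Of 242 that entered, 5 stood higher and 0 lower in HepG2 (2.07% and 0%), 5 and 6 in SK-Hep-1 (2.07% and 2.48%), 2 and 2 in Hep3B (0.826% each), and 3 and 3 in Huh-7D12 (1.24% each). Each of these percentages is below the background given above for its line and direction. Of 9 genes of mitochondrial transcription 1 was called, in HepG2 (11.1%, against 4.62% of all genes). This gene, TFB1M, the methyltransferase of 12S rRNA, stood 2.21-fold (1.95 to 2.50) higher there, at levels of 34.7, 6.54, 15.7 and 6.37. Of 39 genes of mitochondrial RNA processing and decay 2 were called. These were 1 higher in HepG2 (2.56%, against 4.62%) and 1 lower in Hep3B (2.56%, against 2.18%). KIAA0391, the nuclease subunit that cuts the 5′ ends of mitochondrial tRNAs, stood 2.51-fold (2.08 to 3.04) higher in HepG2, and REXO2, an exonuclease of short RNAs, stood lower in Hep3B, at levels of 40.1, 81.1, 14.7 and 40.8.

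Of 21 genes of mitochondrial DNA replication and nucleotide supply, 2 stood higher (9.52%) and 3 lower (14.3%) in SK-Hep-1, against backgrounds of 12.4% and 8.25%. In addition, 1 stood higher in HepG2 and 1, the exonuclease gene EXOG, in Huh-7D12 (4.76% each, against 4.62% and 4.83%). In SK-Hep-1 the thymidine phosphorylase gene TYMP stood 12.02-fold (7.61 to 20.02) higher, and SLC25A33, a carrier of pyrimidine nucleotides, had levels of 37.3, 4.85, 36.5 and 16.4. Among 13 regulators of mitochondrial biogenesis, 2 stood higher (15.4%) and 1 lower (7.69%) in SK-Hep-1, near the backgrounds of 12.4% and 8.25%. Another 1 stood higher in Hep3B (7.69%, against 3.36%) and 1 lower in Huh-7D12 (7.69%, against 2.21%). The 2 that stood higher in SK-Hep-1 are not among the genes named here. PPARGC1A, a transcriptional coactivator, had 853 reads in HepG2, 1 in SK-Hep-1, 660 in Hep3B and 293 in Huh-7D12, and Huh-7D12 was 236-fold (41.99 to 9344) above SK-Hep-1. MYC had levels of 212, 264, 144 and 43.7 and stood lower in Huh-7D12, and the nuclear receptor gene ESRRG had 1, 0, 313 and 28 reads. A relation of these genes to the mitochondrial levels was not tested.

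Among 81 genes of the mitochondrial ribosome, 0 stood higher in any line, against backgrounds of 3.36% to 12.4%. In Hep3B (MRPS31), Huh-7D12 (MRPS22) and SK-Hep-1 (MRPL50), 1 each stood lower. That was 1.23% in each of these lines, against 2.18%, 2.21% and 8.25% of all genes. Of the nuclear subunit genes, NDUFV2, which encodes an iron-sulfur subunit of complex I, had 92, 8, 100 and 75 reads, NDUFAB1, the mitochondrial acyl carrier protein, stood 2.37-fold (2.18 to 2.56) higher in HepG2, and UQCRC2, a core protein of complex III, stood 2.57-fold (2.45 to 2.69) higher in HepG2. COX7A2L, which helps join complexes III and IV, stood 2.38-fold (2.28 to 2.48) higher in SK-Hep-1. For the genes just named, complex I had 1 of 36 higher in HepG2 (2.78%, against 4.62%) and 1 lower in SK-Hep-1 (2.78%, against 8.25%). Complex III had 1 of 9 higher in HepG2 (11.1%, against 4.62%), and complex IV 1 of 12 higher in SK-Hep-1 (8.33%, against 12.4%). The genes of ATP synthase had no call among 18 in any line, against backgrounds of 2.18% to 12.4%.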

How the data were processed

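The libraries, 1 per line, were made as given above and sequenced as 100-base paired ends on a HiSeq 2500, per the labels. STAR 2.6.1d and hg38 are named in the submitters' processing notes, without their role. Not given in the sources used here are the read counter and its annotation, strand setting and treatment of reads with several matches.

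Signal in the deposited gene table means normalized reads per gene, in which the authors had applied 1 scaling factor per library to whole reads. Division by the smallest value above 0 gave whole reads for 100% of values within 0.001, with factors of 1.39 in HepG2, 1.35 in SK-Hep-1, 0.890 in Hep3B and 1.08 in Huh-7D12. Those whole reads underlie all read numbers, shares and ratios. A count model could not be fitted to 1 library per line, so lines were compared by size only. edgeR 4.0.16 (R 4.3.3) was used for TMM factors as an alternative scaling. Intervals are exact Poisson for levels, Wilson for shares and exact binomial (Clopper-Pearson) for ratios, at 95%.

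The members, the gene lists and the rules were chosen with earlier results of these data known. The rRNA and protein genes are all named. Named tRNA genes are the 3 with the highest mean and the 3 with the widest span among those with at least 10 reads in each line, and up to 3 genes per nuclear list and 4 nuclear copies with the highest mean follow the same kind of rule, by distance past 2-fold or by mean; some of these genes are not described. Scripts in Python 3.11.15 with scipy 1.17.1 were tested on simulated data, and positions are counted from 1. Alternatives were other folds, pseudocounts, entry levels and scalings, each line left out, other denominators and the addition of reads of nuclear copies.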

Additional observations from a re-analysis of the deposited data

How the results depend on the processing

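No paired analysis was possible because each line has 1 library. With each line left out in turn, the number of members higher in HepG2 ran from 6 to 9, that lower in Huh-7D12 from 4 to 5, that lower in Hep3B from 0 to 2, that higher in SK-Hep-1 from 0 to 2, and that lower in SK-Hep-1 stayed at 1. The medians of the 13 protein genes ran from -0.35 to 0.26 in Hep3B, from 1.19 to 1.23 in HepG2, from -0.83 to -0.29 in Huh-7D12 and from -0.49 to 0.072 in SK-Hep-1, and the positive ends in Hep3B and SK-Hep-1 came without HepG2. A 1.5-fold threshold gave 15 members higher in HepG2. A 4-fold threshold gave 0 higher in HepG2, 1 lower in Huh-7D12 and 0 lower in SK-Hep-1, and in the nuclear lists 1 higher and 0 lower in Hep3B, 0 higher in HepG2, 0 higher and 0 lower in Huh-7D12 and 1 higher and 1 lower in SK-Hep-1. Library totals gave 1 member higher in HepG2, 2 lower in Huh-7D12 and medians of 0.68 in HepG2 and 0.071 in Hep3B, the latter with its sign turned. Scaling to reads outside mitochondrial genes gave 7 higher in HepG2. TMM, the other pseudocounts and entry levels and the copy reads, the last chosen after seeing the data, kept each of these counts within 1.5 times and each median's sign. The cause of these shifts was not tested. Of the shares of single protein genes and the counts of single nuclear lists, recomputed under their alternatives, 172 kept their value within counting error or 1.5 times, 56 shares moved beyond counting error and 20 list counts became smaller.

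The share of mitochondrial genes was 4.69%, 2.21%, 2.39% and 1.74% in HepG2, SK-Hep-1, Hep3B and Huh-7D12 for protein-coding genes alone and 4.58%, 2.15%, 2.32% and 1.71% with mitochondrial rRNA left out of both sides. Per protein gene read, 16S rRNA alone gave 16.5, 20.7, 15.2 and 9.65 reads and 12S rRNA alone 1.34, 2.75, 1.14 and 1.53, by construction of the ratios. Depth limits the tRNA genes, of which 4 had at least 10 reads in each line. It also limits single comparisons of protein genes, such as MT-ATP8 between SK-Hep-1 and Huh-7D12. The calls of MT-RNR2 and MT-ND1 lay at the 2-fold threshold, within counting error of it, and were lost with library totals. The spread between replicates is unknown.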

Other observations

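Of the 12473 circular RNAs of the circRNA table used here, 0 lay on the mitochondrial chromosome and 0 were assigned to a mitochondrial gene.

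The 54 nuclear genes annotated as copies of mitochondrial DNA, those on chromosome 1 included, had summed levels of 193 in HepG2, 53.4 in SK-Hep-1, 678 in Hep3B and 96.2 in Huh-7D12. Hep3B had the highest sum and HepG2, with the highest mitochondrial levels, the second. MTRNR2L12, which resembles MT-RNR2 and is known for encoding a humanin-like peptide, had 122 reads in HepG2, 68 in SK-Hep-1, 78 in Hep3B and 14 in Huh-7D12, and its lowest line was also that of MT-RNR2.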
